A study of Mus musculus with 24 samples.

Results

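Gene expression in the gastrocnemius, the large calf muscle, was compared between mice lacking Notch2 in muscle fibres (Notch2-mKO) and wild-type (WT) mice, averaged over 3 conditions. All 24 of the 24 libraries entered the comparison, 12 of each genotype, with 4 libraries in each of 6 groups. Both genotypes were C57BL/6 mice homozygous for a floxed Notch2 allele (Notch2f/f), and Notch2-mKO mice also carried 1 copy of Cre recombinase at the Mlc1f locus (Mlc1fCre/+). In each genotype, 1 group was an untreated control, 1 was suspended by the hindlimbs for 7 days (unloading), and 1 was taken 14 days after streptozotocin at 150 mg/kg, a toxin of the insulin-producing cells (diabetes). The series title states the question: does Notch2 deficiency protect muscle from wasting in these treatments? The labels give no ages and no sexes. Nothing in them states that the replicates were different animals, so p-values measure only the spread between these samples, which may be technical.

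Notch2 is a cell surface receptor. Ligands of the Jagged and Delta families on a neighbouring cell trigger its cleavage, and the freed intracellular part joins the DNA-binding protein Rbpj and coactivators of the Mastermind family to switch on genes such as Hes1 and Hey1. In muscle, Notch signalling is best known for holding satellite cells, the muscle stem cells, in quiescence. Mlc1f is a transcript of Myl1, which encodes an essential light chain of fast myosin, so Cre made from it acts in differentiating and mature fibres. Satellite, endothelial and other cells of the tissue keep their own Notch2. Every Notch2-mKO library carried Cre at Myl1 and no WT library did, so loss of Notch2, Cre itself and DNA inherited with the Cre locus cannot be told apart.

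Averaged over conditions, the genotypes differed little. Of 13048 genes tested, the quasi-likelihood test of edgeR called 1 at an adjusted p below 0.05, or 0.00766% of those tested. That gene was Lancl1, which fell in Notch2-mKO muscle and lies 52.6 kb from Myl1 on chromosome 1. No gene was called higher, and at an unadjusted p below 0.05 there were 698 genes (5.35%), 410 higher (3.14%) and 288 lower (2.21%). DESeq2 called 2 genes higher and limma-voom 1 at an adjusted p below 0.05, Wdfy1 in both. Within single conditions no gene was called, and the share at an unadjusted p below 0.05 was 5.32% in controls, 10.3% after unloading and 5.29% in diabetes. The number of genes past an unadjusted p of 0.01 was 132 (1.01%), and 11 (0.0843%) passed 0.001. Among 9444 genes whose mean reached 2 CPM (read counts scaled to the size of the library), 99.8% differed by less than 0.5 on the log2 scale. The 95% interval of the difference lay within 1 log2 unit either way for 99.7% of these genes, and their median standard error (SE) was 0.0896. Wdfy1 was the only gene of that abundance with an average difference of at least 1 log2 unit.

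The estimated counts of a library summed to between 33112459 and 56369917, spread over 14226 to 14722 genes above 0. The number of genes above 0 was lower by 7.83 on average in Notch2-mKO libraries (exact permutation test within conditions, two-sided p = 0.888), and the total depth differed with p = 0.533 in the same exact test. The fast fibre myosin gene Myh4, a defining marker of this muscle, was abundant in every library, at 40360 to 102900 CPM.

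Libraries also differed along base composition, and this difference between genotypes changed sign between conditions. The index used here starts from the log2 level of each gene minus its own mean over all libraries. It subtracts the mean of these deviations over 2376 GC-rich genes (above 56% GC) from that over 1495 AT-rich genes (below 42% GC). In controls it was -0.637 ± 0.322 (SD, n = 4) in WT and -0.304 ± 0.253 in Notch2-mKO libraries. After unloading it was 0.397 ± 0.0734 in WT and 0.0298 ± 0.203 in Notch2-mKO libraries. In diabetes the WT libraries had 0.367 ± 0.139 and the Notch2-mKO libraries 0.148 ± 0.14. The index was thus higher in Notch2-mKO than in WT muscle among controls and lower in both treatments, and the 3 differences nearly cancelled in the average (-0.0841, exact permutation test within conditions, two-sided p = 0.427).

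**Figure D1:**
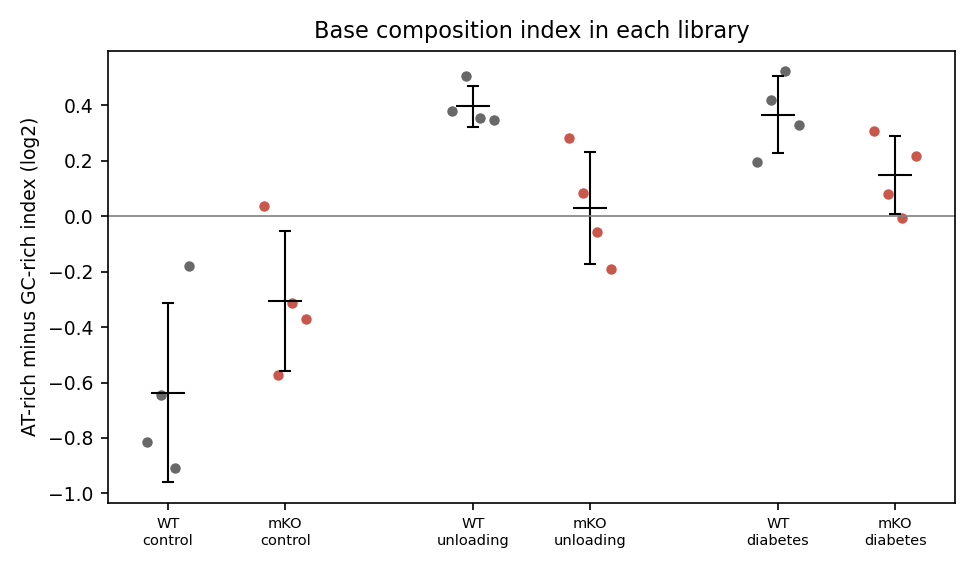
Base composition index in each library (points; log2 units), with the mean and SD of the 4 libraries of each group. WT libraries ran from the lowest group mean (-0.637, controls) to the highest (0.397, unloading), while the Notch2-mKO group means stayed between -0.304 and 0.148.

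Notch2 (chromosome 3, 98013538 to 98150367, build GRCm38) had low expression, at 51 to 166 counts in a library. In WT controls it was at 1.83, 1.76, 1.87 and 1.92 CPM, and in Notch2-mKO controls at 2.12, 1.25, 1.55 and 2.55 CPM. After unloading the WT libraries had 2.02, 1.34, 1.97 and 1.71 CPM, and the Notch2-mKO libraries 1.47, 1.38, 1.58 and 1.30 CPM. In diabetes the WT values were 1.74, 2.18, 3.18 and 2.004 CPM, and the Notch2-mKO values 1.70, 2.16, 1.15 and 2.12 CPM. The genotypes overlapped in all 3 conditions, with the Notch2-mKO controls on both sides of the WT controls. The average log2 difference (Notch2-mKO minus WT here and below) was -0.21 (SE 0.136, 95% interval -0.49 to 0.07), and the edgeR test did not call it (adjusted p = 0.898). An exact permutation test of the log2 levels within conditions gave a two-sided p of 0.0955. These counts sum over all exons and all cells of the tissue, and Cre removes only the floxed part in fibres, so they cannot serve as a check on the genotype labels.

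Myl1 (chromosome 1, 66924295 to 66947932), whose locus carries Cre in Notch2-mKO mice, was at 12750, 13890, 15890 and 15610 CPM in WT controls. The Notch2-mKO controls had 10260, 9131, 10900 and 11330 CPM, all below the WT controls. After unloading the WT libraries had 6887, 7821, 8979 and 13490 CPM and the Notch2-mKO libraries 3818, 8704, 9889 and 8692 CPM. The groups overlapped there, and did so again in diabetes, where WT libraries had 9066, 7117, 3382 and 8920 CPM and Notch2-mKO libraries 7307, 5187, 6626 and 6610 CPM. The average log2 difference was -0.30 (SE 0.149, 95% interval -0.60 to 0.01) and was not called (edgeR, adjusted p = 0.898; exact permutation test within conditions, two-sided p = 0.122). By condition it was -0.48 in controls, -0.26 after unloading and -0.15 in diabetes.

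**Figure D2:**
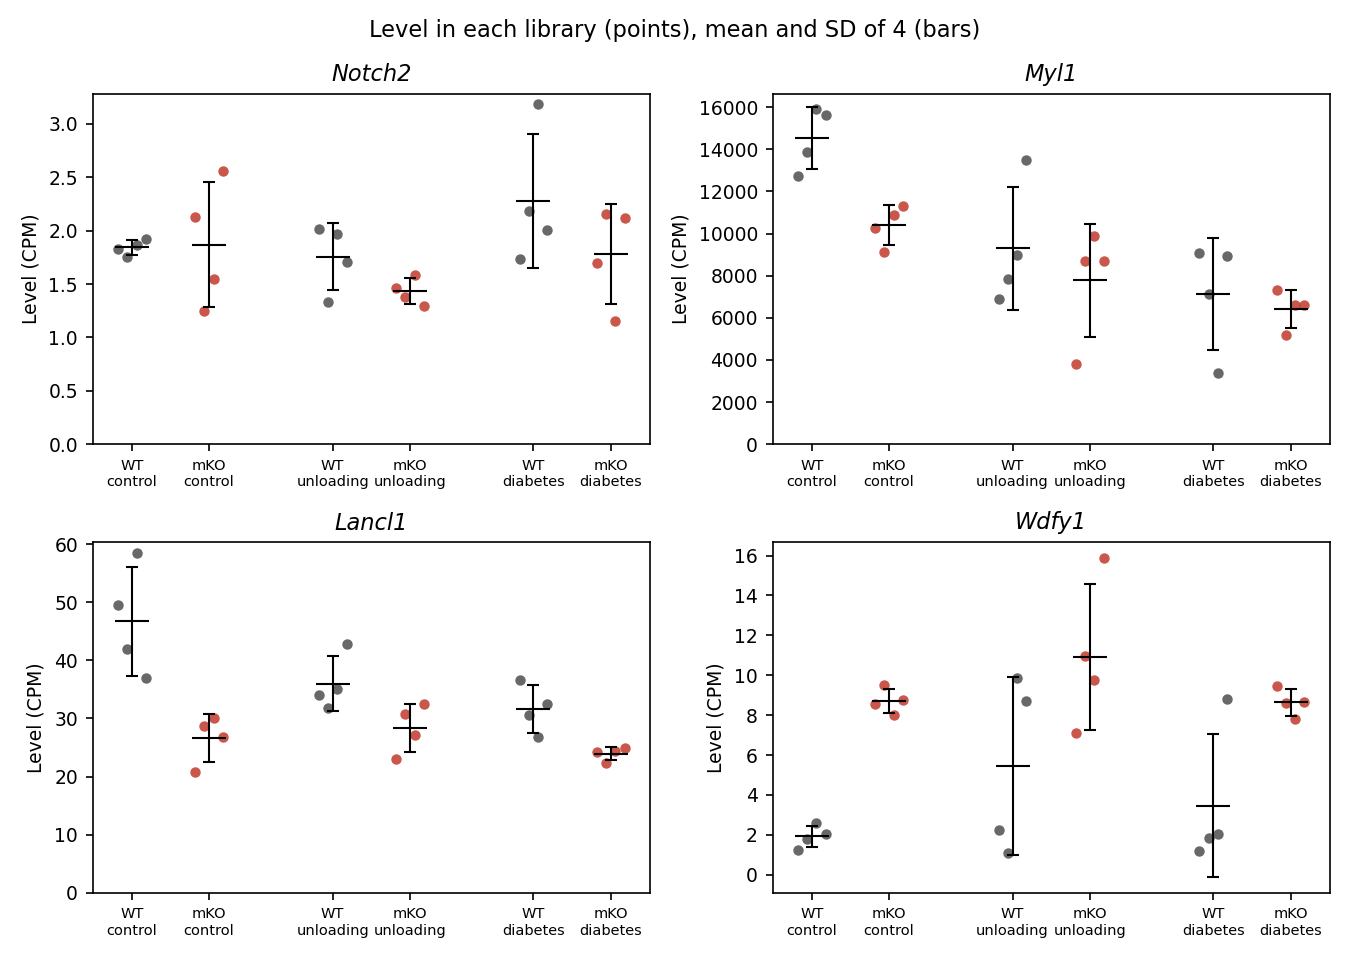
Level (CPM, linear axis) of Notch2, Myl1, Lancl1 and Wdfy1 in each library, with the mean and SD of the 4 libraries of each group. Notch2 overlaps between genotypes in every condition, Lancl1 is separated in controls and diabetes, and Wdfy1 is between 7.13 and 15.9 CPM in every Notch2-mKO library but spread over a wide range in WT libraries.

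Lancl1 (chromosome 1, 67000517 to 67038891) encodes a glutathione-binding protein of the LanC-like family. Its promoter is shown with that of Myl1, since the only called gene and the locus that carries Cre are neighbours on the same chromosome. Each window holds the 250 bases before 1 RefSeq start listed for the gene (GRCm38.p6, minus strand). For Myl1 it is chr1:66945057-66945306, inside the span of that gene and so not before its outermost start. Whether this is the start of the Mlc1f transcript is not given in the sources used here. For Lancl1 it is chr1:67038835-67039084, partly inside the span of that gene. Capitals mark CANNTG, the E-box bound by myogenic regulators such as MyoD, searched on both strands.
Myl1: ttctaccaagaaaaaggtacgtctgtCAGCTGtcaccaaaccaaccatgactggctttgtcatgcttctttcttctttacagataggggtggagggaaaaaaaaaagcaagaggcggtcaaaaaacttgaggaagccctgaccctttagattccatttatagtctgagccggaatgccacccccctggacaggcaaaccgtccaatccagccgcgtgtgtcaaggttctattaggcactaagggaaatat
Lancl1: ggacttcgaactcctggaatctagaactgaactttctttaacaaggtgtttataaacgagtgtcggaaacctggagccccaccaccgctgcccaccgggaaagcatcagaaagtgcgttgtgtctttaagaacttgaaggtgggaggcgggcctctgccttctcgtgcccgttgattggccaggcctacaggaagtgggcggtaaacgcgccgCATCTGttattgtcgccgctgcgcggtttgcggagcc
Each window held 1 CANNTG, which 66.2% of 32851 RefSeq promoter windows of this length also held. Neither held TGGGAA, a core of the sequence bound by Rbpj, which 21.6% of windows held on either strand. These matches describe letters and show no binding.

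Lancl1 was lower in Notch2-mKO muscle in each of the 3 conditions. In controls the WT libraries had 49.6, 41.9, 58.5 and 36.9 CPM, and the Notch2-mKO libraries 20.8, 28.8, 30.04 and 26.7 CPM. After unloading the values were 34.1, 31.9, 35.1 and 42.8 CPM in WT and 23.0, 30.8, 27.2 and 32.4 CPM in Notch2-mKO muscle. In diabetes they were 36.7, 30.5, 26.8 and 32.4 CPM in WT and 24.2, 22.3, 24.4 and 24.9 CPM in Notch2-mKO muscle. The genotypes did not overlap in controls or in diabetes, and after unloading only the highest Notch2-mKO library reached above the lowest WT library. The average log2 difference was -0.52 (SE 0.0823, 95% interval -0.69 to -0.35; edgeR, adjusted p = 0.0181), made up of -0.81 in controls, -0.34 after unloading and -0.40 in diabetes. A test of whether the difference depended on condition gave an unadjusted p of 0.0549 in edgeR. Leaving out 1 of the 24 libraries at a time kept the call in 19 cases and lost it in 5 (WT control replicate 1, WT unloading replicate 4, WT diabetes replicate 1, Notch2-mKO unloading replicate 3 and Notch2-mKO diabetes replicate 2), with differences of -0.55 to -0.48 and adjusted p of 0.00513 to 0.0635. The call was also lost when the trend of every library with GC content and length was removed (-0.52, adjusted p = 0.0524) and without any of the conditions. Lancl1 shares 9759 bases with an uncharacterised RefSeq locus, and whether the counting used strand is not given in the sources used here.

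Wdfy1 (chromosome 1, 79702262 to 79776143) encodes an early endosome protein with a FYVE domain and takes part in Toll-like receptor signalling. It lies 12.75 Mb from Myl1 and had the second-smallest p. All Notch2-mKO libraries were high, at 8.58, 9.49, 8.02 and 8.74 CPM in controls, 7.13, 10.96, 9.76 and 15.9 CPM after unloading, and 9.48, 8.6, 7.82 and 8.64 CPM in diabetes. The WT libraries had 1.26, 1.80, 2.58 and 2.04 CPM in controls, 2.23, 1.07, 9.86 and 8.71 CPM after unloading, and 1.21, 1.84, 2.03 and 8.80 CPM in diabetes. WT libraries therefore fell into a low set of 9, from 1.07 to 2.58 CPM, and a high set of 3, from 8.71 to 9.86 CPM, with none between. The high set was inside the range of the Notch2-mKO libraries, so the genotypes were fully apart in controls alone. The average log2 difference was 1.496 (SE 0.297, 95% interval 0.88 to 2.11) and was not called (edgeR, adjusted p = 0.226). Without WT diabetes replicate 4, which belongs to the high set, it was called (1.84, edgeR, adjusted p = 0.00185). DESeq2 (1.496, adjusted p = 0.0305) and limma-voom (1.82, adjusted p = 0.0158) also called it. RefSeq places 126 bases of Wdfy1 inside Mrpl44.

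Genes around Myl1 were counted because DNA flanking the Cre locus is inherited with it. Of 108 genes tested within 10 Mb, 14 (13%) passed an unadjusted p of 0.05, against 5.25% of 12290 genes on other chromosomes. The 26 genes within 5 Mb included 7 (26.9%), and all 7 were lower in Notch2-mKO muscle. From 5 to 10 Mb there were 7 of 82 (8.54%), and from 10 to 20 Mb 3 of 63 (4.76%). Farther out on the same chromosome the share did not fall steadily, with 12 of 145 (8.28%) from 20 to 40 Mb, 13 of 177 (7.34%) from 40 to 80 Mb and 11 of 264 (4.17%) beyond 80 Mb. The 244 genes within 10 Mb of Notch2 on chromosome 3 had 13 (5.33%), close to the background of all genes. Lancl1 was the only call in the windows of 5, 10 and 20 Mb. These counts are at unadjusted p and neighbouring genes share libraries and base composition, so they describe where the small p-values lay.

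**Figure D3:**
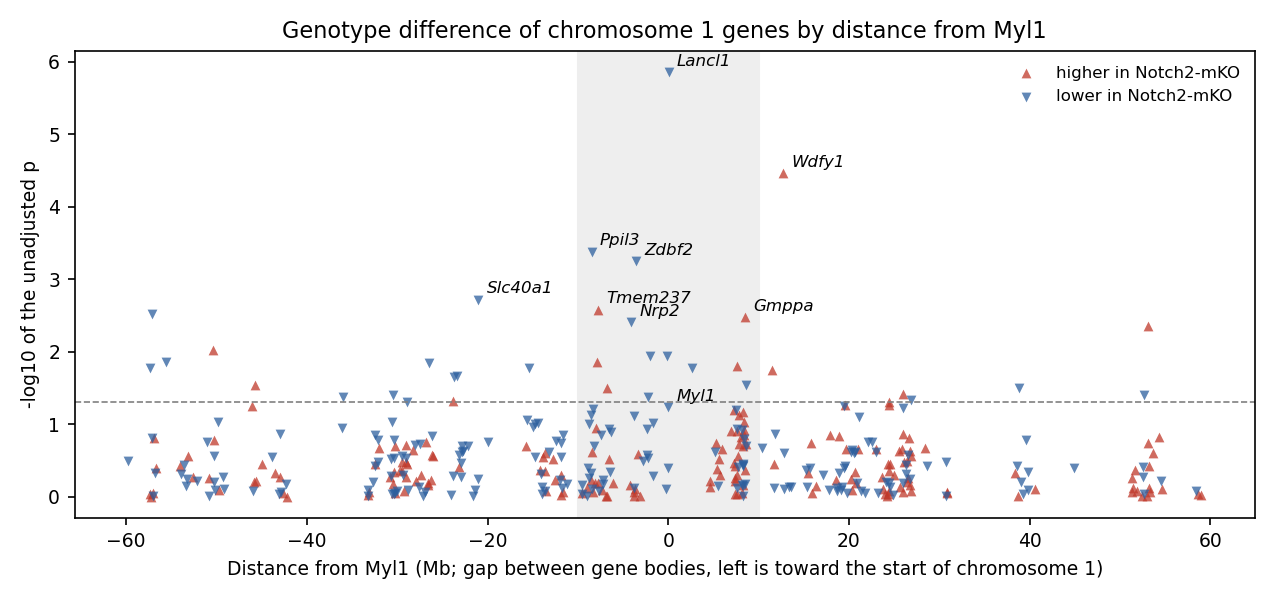
Each point is a tested gene of chromosome 1, placed by its distance from Myl1 (Mb) and by -log10 of its unadjusted p in edgeR. Upward triangles are higher and downward triangles lower in Notch2-mKO muscle, the shaded band covers 10 Mb on each side, and the dashed line is an unadjusted p of 0.05. The 7 genes past the line within 5 Mb all point down, with Lancl1 at the top beside Myl1.

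Apart from Lancl1, the genes within 20 Mb that are named here passed the unadjusted threshold only, and those outside the naming rule (Ppil3, Nrp2 and Wdfy1 are inside it) were chosen after their values were seen. Zdbf2, an imprinted gene 3.61 Mb from Myl1, differed by -0.99 (SE 0.25, edgeR, unadjusted p = 0.000564) and was near 0, at 0.285 to 1.74 CPM in WT and 0.0875 to 0.723 CPM in Notch2-mKO libraries. Its 4 Notch2-mKO libraries were all below the 4 WT libraries in 2 conditions, and its span overlaps that of Gpr1. Ppil3, a cyclophilin-type protein of the spliceosome, ran from 5.77 to 9.25 CPM (median 7.49) in WT and from 4.74 to 7.92 CPM (median 6.03) in Notch2-mKO libraries. Its difference of -0.33 (SE 0.0809) was nearly the same in controls (-0.30), unloading (-0.39) and diabetes (-0.30), but its adjusted p in edgeR was 0.778. It shares 441 bases with Nif3l1.

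Nrp2, a neuropilin receptor of semaphorins and VEGF, lies 4.11 Mb away and had a difference of -0.36. Kansl1l, 107 kb from Myl1 on the side away from Lancl1, had -0.25, and Plekhm3, an adaptor protein gene at 1.97 Mb, had -0.30. The transcription factor gene Ikzf2 at 2.58 Mb had -0.46, and the Wnt receptor gene Fzd5 at 2.19 Mb had -0.37. Ikzf2 had -0.08 in controls, -0.23 after unloading and -1.08 in diabetes, where WT libraries varied widely (4.55 ± 2.70 CPM, SD). Fzd5 averaged only 0.92 CPM and had 0.26, -0.72 and -0.65 in the same order. With a mean of at least 1 CPM required, 5 genes within 5 Mb passed the unadjusted threshold, as did 5.45% of all genes. Genes between 7.65 and 8.49 Mb from Myl1 lay on both sides of it. At higher coordinates, values were higher in Notch2-mKO muscle for Rnf25 (0.25) and Gmppa, a regulator of GDP-mannose synthesis (0.26). At lower coordinates they were higher for Tmem237 of the primary cilium (0.37) and the pseudokinase gene Stradb (0.19). Ppil3, at lower coordinates and 8.48 Mb, was lower. So were Stk11ip at higher coordinates and 8.57 Mb (-0.26) and Nabp1 at lower coordinates and 15.45 Mb (-0.44). The other genes past the threshold within 20 Mb, Wdr12 (0.14) and Farsb (0.12), were higher. Apart from Ppil3, given above, each had an adjusted p of 0.898 in edgeR.

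Agreement in sign between conditions was counted near Myl1 and elsewhere. Of the 17 genes within 20 Mb at an unadjusted p below 0.05, 16 had a difference of the same sign in all 3 conditions, Fzd5 being the exception, against 64.3% of the 698 such genes overall. Without regard to p, the share of the same sign in all 3 conditions was taken among genes of at least 2 CPM. It was 40.5% of 84 genes within 10 Mb of Myl1 and 33.3% of 129 within 20 Mb. On other chromosomes it was 21% of 8899, and among all genes of that abundance 21.2% of 9444. Across those 9444 genes the difference in controls ran against the difference after unloading (Pearson r = -0.483) and in diabetes (-0.256), while unloading and diabetes ran together (0.503). Among the 84 genes within 10 Mb of Myl1, controls had r = -0.0998 with unloading and 0.0202 with diabetes. Unloading and diabetes had 0.653 there. Within 20 Mb the values in the same order were 0.0584, 0.305 and 0.635. Genes are not independent replicates, and all genes share the same libraries. The difference also followed GC content across 12940 genes, with Spearman's rho of -0.415 in controls, 0.394 after unloading, 0.285 in diabetes and 0.189 in the average. The part of base composition in the agreement was not tested, and signs were not recounted with its trend removed. A separate count, of genes at an unadjusted p below 0.05, was made with that trend removed. It gave 8 within 5 Mb, against 7 before, and 17 within 10 Mb, against 14. Over all genes tested it gave 692 (5.3%), against 698 (5.35%).

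The remaining genes of the naming rule were taken in order of p among genes of at least 2 CPM whose difference had the same sign in all 3 conditions. None was called (edgeR, adjusted p from 0.550 to 0.898), and they are given as values. Atp9a, a lipid-flipping ATPase of endosomes, ran from 22.4 to 38.2 CPM (median 33.9) in WT and from 26.5 to 68.8 CPM (median 39.8) in Notch2-mKO libraries. Its difference was 0.43 (SE 0.0965), and its Notch2-mKO libraries were all above the WT libraries after unloading and in diabetes. Ino80c, a subunit of the INO80 chromatin remodeller, went from a median of 36.5 to 42.6 CPM, a difference of 0.22 (SE 0.0503), and was fully apart in 2 conditions. Separation in the same direction in at least 2 conditions was found for 58 genes, or 0.445% of those tested, and in all 3 conditions for none.

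Also higher in value were Mfap3l (0.47), the deubiquitinase gene Otub2 (0.40), Ap3s1 of the AP-3 sorting complex (0.27), Alg5 of glycoprotein synthesis (0.26) and Mgst3, a microsomal glutathione transferase (0.22). Mfap3l varied most over conditions, with 0.43 in controls, 0.14 after unloading and 0.84 in diabetes. On the lower side, the glutamate transporter gene Slc1a1 had -0.46 and ran from 1.24 to 5.16 CPM in WT and from 1.13 to 3.45 CPM in Notch2-mKO libraries. Slc40a1, which encodes the iron exporter ferroportin, had -0.41 (SE 0.118), with a median of 39.5 CPM in WT and 29.9 CPM in Notch2-mKO libraries, and the genotypes overlapped in every condition. Sfrs18, a splicing-related gene, had -0.40, the SUMO protease gene Senp7 -0.28, and Pot1a, which protects telomere ends, -0.21.

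**Figure D4:**
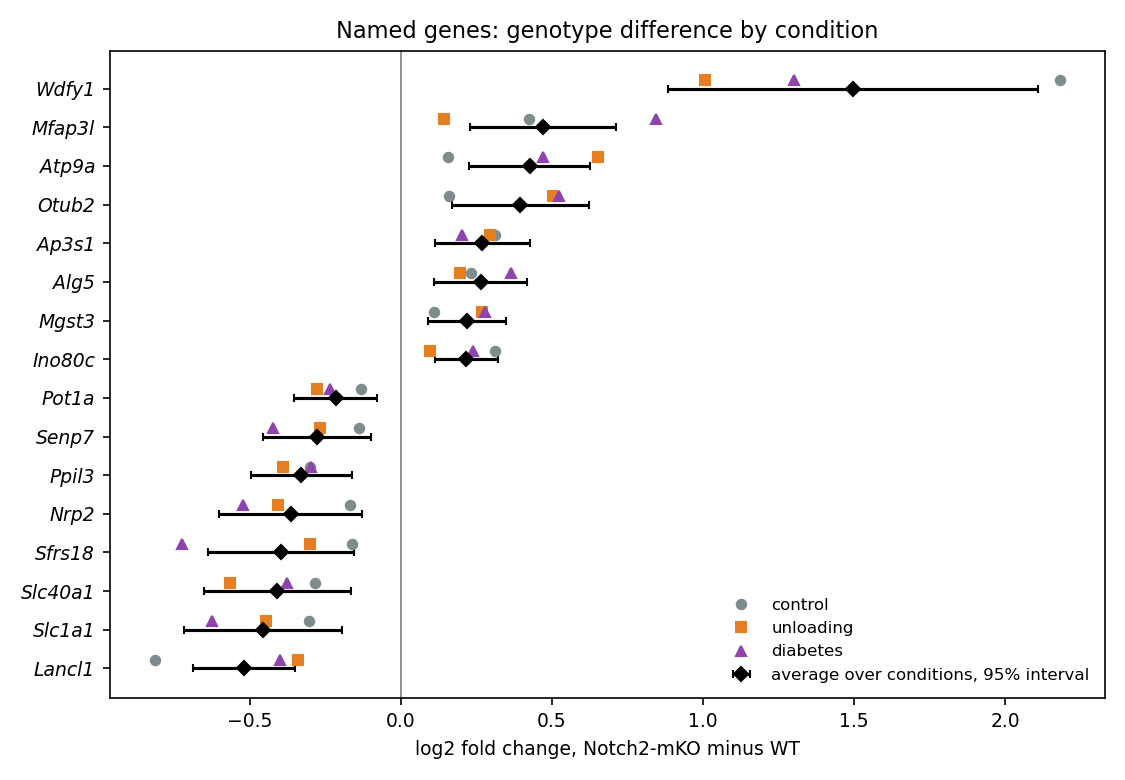
Log2 difference (Notch2-mKO minus WT) of the genes named by size and p, averaged over conditions (diamonds, 95% interval) and in each condition (other symbols). All 3 conditions lie on the same side of 0 for every gene shown because the naming rule asked for it, and Lancl1 is the only gene called.

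No gene of the Notch pathway was called. Of 9 receptors and ligands tested, of 12 listed, none passed even an unadjusted p of 0.05, and the median difference was -0.10 against 0.01 for all genes. The receptor gene Notch1 was at 3.46 to 6.73 CPM in WT and 2.55 to 6.52 CPM in Notch2-mKO libraries (difference -0.22, 95% interval -0.45 to 0.01). Notch3, which marks vascular smooth muscle, had -0.02 and the endothelial receptor gene Notch4 0.06. The ligand genes Jag1 and Dll4 had -0.23 and -0.10, Jag2 had 0.00, and Dlk1, a non-canonical ligand, had -0.30.

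Of 25 genes for Notch processing and nuclear factors, 2 (8%) passed the unadjusted threshold, against 5.35% of all genes tested. Both were lower, and the list's median was -0.03. They were Maml3, a Mastermind coactivator (-0.28, edgeR, unadjusted p = 0.008), and Furin, the protease that cuts Notch precursors (-0.23, unadjusted p = 0.037). Neither was called (adjusted p = 0.898 for each). Furin was highest in WT diabetes replicate 3, at 112 CPM against 50.6 to 58.5 CPM in the other 3 libraries of that group. Rbpj, the DNA-binding partner of cleaved Notch, had -0.06 (95% interval -0.21 to 0.08).

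Notch target genes lay on both sides of 0. Of 14 tested, 1 (7.14%) passed the unadjusted threshold, against 5.35% of all genes tested, and the median was 0.00. Hes1, the textbook target, ran from 2.90 to 7.76 CPM (median 4.58) in WT and from 3.52 to 9.62 CPM (median 4.86) in Notch2-mKO libraries, a difference of 0.20 (95% interval -0.07 to 0.47). Hey1 had 0.19, Heyl -0.09, Nrarp -0.10 and Myc -0.30. The gene past the unadjusted threshold was Hey2 (1.16, SE 0.417, edgeR, unadjusted p = 0.01, adjusted p = 0.898), which had 0 to 0.278 CPM in WT and 0.0433 to 0.392 CPM in Notch2-mKO libraries. In the shallowest library 3 counts correspond to 0.0906 CPM, so Hey2 was measured on a handful of counts.

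Genes that mark muscle wasting had small average differences, and none was called. Of 22 genes, 2 (9.09%) passed an unadjusted p of 0.05, against 5.35% of all genes tested. Both were lower, and the median of the list was -0.02 (0.07 in controls, -0.02 after unloading and -0.09 in diabetes). Fbxo32 and Trim63, the ubiquitin ligases atrogin-1 and MuRF1 that rise in wasting muscle, had -0.04 (95% interval -0.68 to 0.61; edgeR, adjusted p = 0.989) and -0.07 (-0.59 to 0.45; adjusted p = 0.9748). Fbxo32 ran from 67.5 to 1216 CPM in WT and from 124 to 1234 CPM in Notch2-mKO libraries. These averages joined conditions of opposite sign. Fbxo32 had 0.55 in controls (SE 0.545), 0.03 after unloading (SE 0.542) and -0.69 in diabetes (SE 0.544). Trim63 had 0.30, -0.03 and -0.48 in the same order, with an SE of 0.44 or less in each. The genes past the unadjusted threshold were the ubiquitin ligases Cblb (-0.26) and Nedd4 (-0.12), and the lysosomal protease gene Ctsl had -0.20. Nedd4 had 0.07 in controls, -0.23 after unloading and -0.20 in diabetes. Its Notch2-mKO libraries were all below the WT libraries in 2 conditions, and 0.445% of genes tested were so separated in either direction. All 32 proteasome genes had a 95% interval reaching no farther than 0.3845 log2 units from 0, with a median of 0.03 and none past the unadjusted threshold. Of 26 autophagy and lysosome genes, 1 (3.85%) passed it, the lysosomal membrane gene Lamp1 (0.15, edgeR, unadjusted p = 0.0126), and the median was 0.02.

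Among contractile genes, none of 16 fast fibre genes passed an unadjusted p of 0.05 (median 0.04), and Myl1 had the difference of largest size, while Myh1 had 0.16 and Myh4 -0.01. None of 15 slow and oxidative fibre genes did so (median 0.09). The oxygen store myoglobin (Mb) had 0.26, and the stretch-responsive genes Csrp3 and Ankrd2 had -0.62 and -0.40, with SE of 0.343 and 0.252. The Csrp3 value rested on WT unloading replicate 1, at 147 CPM against 7.79 to 19.8 CPM in the other 3 libraries of that group, and was 0.00601 without it. Ankrd2 also depended on single libraries, with differences from -0.498 to -0.0519 on leaving out 1 library at a time. Of 50 oxidative phosphorylation genes, 47 had a positive difference with a median of 0.08. The unadjusted threshold was passed by 1 of them (2%), against 5.35% of all genes tested. Among all genes tested, 6963 of 13048 had a positive difference.

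The largest list medians belonged to markers of cells other than fibres. Of 11 adipocyte markers 9 were tested, none passed an unadjusted p of 0.05, and the median was 0.35, from 0.00 after unloading to 0.88 in diabetes. Adipoq, the adipokine adiponectin, ran from 1.74 to 9.98 CPM (median 4.36) in WT and from 2.73 to 11.4 CPM (median 5.64) in Notch2-mKO libraries, a difference of 0.48 (95% interval -0.02 to 0.97). Plin1 of the lipid droplet had 0.50, Retn 0.49 and Cfd 0.35. The summed level of the adipocyte markers was 1076 to 3296 CPM in WT and 1175 to 2691 CPM in Notch2-mKO libraries. Cfd, Adipoq, Plin1 and Retn had means of only 44.6, 5.38, 2.16 and 2.14 CPM. The sum therefore rested mostly on other members and does not follow these named genes. Lep was at 0 in at least 1 library of each genotype. All 8 blood markers tested had a positive difference (median 0.25, none past the unadjusted threshold), as did 6963 of all 13048 genes. The median of the blood markers was 0.06 in controls, 0.11 after unloading and 0.65 in diabetes. Among them, Ppbp and Slc4a1 averaged only 0.243 and 0.17 CPM. Summed levels of the blood markers were 266 to 1093 CPM in WT and 218 to 1072 CPM in Notch2-mKO libraries. Of 22 endothelial markers 18 had a negative difference (median -0.09), as did 6085 of all 13048 genes. Summed levels of the endothelial markers were 635 to 860 CPM in WT and 475 to 908 CPM in Notch2-mKO libraries. In whole muscle, fewer cells of a type and less RNA per cell cannot be told apart.

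Satellite cells are the muscle cells in which Notch is best studied. Of 16 satellite cell and myogenic genes, 2 (12.5%) passed the unadjusted threshold, against 5.35% of all genes tested, and both were lower. The list had a median of -0.10 and summed levels of 191 to 303 CPM in WT and 185 to 277 CPM in Notch2-mKO libraries. Counts were made over 36 gene lists, of which those bearing most on the genotype and tissue are given here, and none of the 36 held a called gene.

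**Figure D5:**
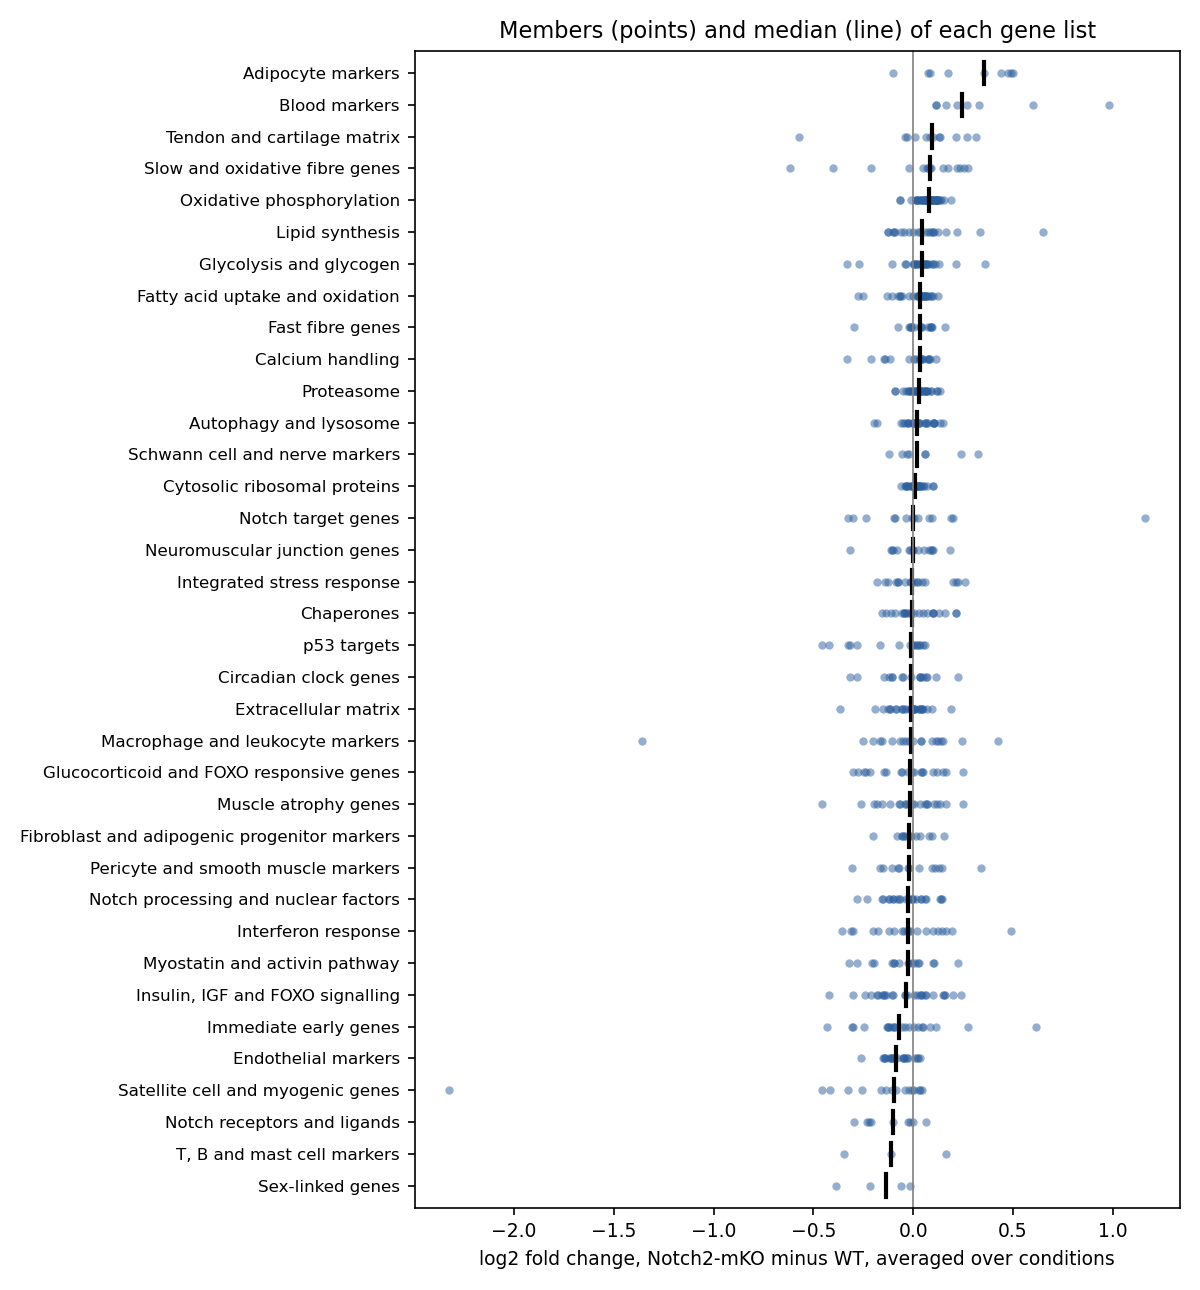
Log2 difference (Notch2-mKO minus WT, averaged over conditions) of each tested gene of each list (points) and the median of the list (black line). Adipocyte and blood markers have the highest medians, at 0.35 and 0.25, and most other lists lie within 0.1 of 0.

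Whether the genotype difference depended on condition was tested with 2 degrees of freedom in the same edgeR fit. No gene was called, and 1248 genes (9.56%) had an unadjusted p below 0.05. DESeq2 called 36 genes. The smallest p belonged to Mtm1, which encodes myotubularin, a lipid phosphatase of muscle (adjusted p = 0.167). Its genotype difference was 0.84 in controls, -0.58 after unloading and -0.39 in diabetes. Rnmt, an enzyme of mRNA capping, had the same order (0.51, -0.33 and -0.17). Alox5ap, a cofactor of leukotriene synthesis, had the opposite one (-0.75, 0.60 and 0.23). Without WT control replicate 4, 140 genes were called, these 3 among them. With the trend with GC content and length removed, genes at an unadjusted p below 0.05 fell from 1248 to 749.

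Averaged over the 2 treatments alone, without the controls, 8 genes were called higher and 76 lower in Notch2-mKO muscle, Atp9a among the former (0.56, edgeR, adjusted p = 0.0444). The median GC content was 59% for the genes called higher and 40.6% for those called lower, against 49.9% for all genes of that fit. After removal of that trend from every library, no gene was called in the same comparison, and 1368 (10.6%) passed an unadjusted p of 0.05. Lancl1 had -0.37 there before removal of the trend and -0.35 after it (edgeR, adjusted p = 0.0514 and 0.166).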

How the data were processed

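RNA from frozen gastrocnemius muscle was sequenced in 24 libraries. The authors deposited 4 tables of 36172 gene models holding estimated counts per gene (many of them fractional) and log2 values. Per the submitters' processing notes the build was mm10. Which aligner and counter were used is not given in the sources used here. The deposited log2 values are centred on the controls of the same genotype, so they cannot give a genotype difference and were not tested. The 8 control columns that appear in 2 tables held identical values and were used once.

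Counts were rounded and fitted in edgeR 4.0.16 (R 4.3.3) with 1 coefficient per group, TMM factors and the default filter, which kept 13048 genes. The contrast was the mean of the 3 Notch2-mKO groups minus that of the 3 WT groups, with Benjamini-Hochberg adjustment over all genes tested. The biological coefficient of variation was 20.0%, with 18 residual degrees of freedom. Positions come from RefSeq GRCm38.p6, the build of mm10, by gene ID. GC content comes from GENCODE transcripts.

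Genes were named by this rule: Notch2 and Myl1; the 12 largest called changes per direction of at least 2 CPM and the same sign in all conditions, filled to 8 with uncalled genes by p; up to 4 genes by p of each described list; and 4 by p for dependence on condition, 1 of which is not reported here. The 36 lists, the members and the rule were chosen with earlier results of these data known. Of 736 list entries, 6 were matched through another symbol and 3 were unmatched. Alternatives were upper quartile scaling, 2 other filters, an additive model, robust shrinkage, DESeq2 1.42.0, limma-voom (limma 3.58.1), a replicate block, removal of the GC and length trend, and leaving out each library or condition.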

Additional observations from a re-analysis of the deposited data

Results flagged for a closer look

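In 372 groups of 4 checked, over 59 genes and 3 library measures, 20 values, from 11 of the 24 libraries, stood apart from the other 3 libraries of their group by Dixon's test at its 95% critical value, and chance gives about 1 in 20, or 19. Each value is given with the range of the other 3 libraries.

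In WT diabetes replicate 4, Wdfy1 was at 8.80 CPM (others 1.21 to 2.03), Adipoq at 6.82 CPM (1.74 to 2.33), Mgst3 at 126 CPM (154 to 155) and Slc4a1 at 0.179 CPM (all 0). In WT diabetes replicate 3, Jag1 was at 3.35 CPM (2.17 to 2.23), Furin at 112 CPM (50.6 to 58.5) and Myoz2, a Z-disc protein gene of slow fibres, at 255 CPM (165 to 177). Mtm1 was at 8.09 CPM in WT diabetes replicate 1 (9.78 to 9.95). After unloading, Atp9a was at 22.4 CPM in WT replicate 4 (32.99 to 34.1) and Csrp3 at 147 CPM in WT replicate 1 (7.79 to 19.8).

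In Notch2-mKO diabetes replicate 4, Mfap3l was at 7.78 CPM (5.34 to 5.70), Mgst3 at 161 CPM (183 to 187) and Hes1 at 3.52 CPM (4.48 to 4.67). Slc4a1, the anion exchanger of red cells, was at 0.384 CPM in Notch2-mKO diabetes replicate 2 (0.087 to 0.0985), and the proteasome gene Psma2 at 60.04 CPM in Notch2-mKO diabetes replicate 1 (54.6 to 55.1). Among unloaded Notch2-mKO libraries, replicate 4 had Alg5 at 13.5 CPM (11.1 to 11.3) and Ctsl at 118 CPM (68.9 to 74.3), and replicate 1 had Mb at 788 CPM (1525 to 1601) and the fast troponin gene Tnni2 at 8205 CPM (10990 to 11410). Hey1 was at 3.88 CPM in Notch2-mKO control replicate 4 (2.10 to 2.32).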

How the results depend on the processing

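Upper quartile scaling, both other filters, the additive model and robust shrinkage left the counts at 0 higher and 1 lower. Higher genes numbered 1 with the replicate block (Wdfy1, 1.68, adjusted p = 0.0298), 2 in DESeq2 (H2-Q10, a gene of a family of near-identical copies whose counts are uncertain, and Wdfy1), 1 in limma-voom (Wdfy1), 8 without the control groups, and 0 to 1 with 1 library left out (1, Wdfy1, without WT diabetes replicate 4). Lower genes numbered 0 with the GC and length trend removed, 76 without the control groups, 0 without the control groups and with the trend removed, 0 without the unloading or the diabetes groups, and 0 to 1 with 1 library left out. Genes called within 10 Mb of Myl1 numbered 0 with the trend removed, 0 without each condition, 0 without the control groups and with the trend removed, and 0 to 1 with 1 library left out. Dependence on condition was called for 36 genes in DESeq2 and for 0 to 140 with 1 library left out (140 without WT control replicate 4). The combination of no control groups with the trend removed, and the recounts near Myl1 at unadjusted p, were chosen after seeing the data.

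Lancl1 lost its call with the trend removed, and without WT control replicate 1 (adjusted p = 0.0508), WT unloading replicate 4 (0.0513), WT diabetes replicate 1 (0.0537), Notch2-mKO unloading replicate 3 (0.0552) and Notch2-mKO diabetes replicate 2 (0.0635). It also lost it without the control (-0.37, 0.0514), unloading (-0.60, 0.0674) or diabetes groups (-0.58, 0.489), which leave fewer samples. The cause of the other losses was not tested. Unadjusted p below 0.05 within 10 Mb of Myl1 was met by 27 genes without the control groups, 8 without unloading and 9 without diabetes, while the share of all genes that met it moved as well, to 15.4%, 3.7% and 1.98%.

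Of 2030 fold changes of 55 genes recomputed over 37 settings, 2011 kept direction and side of the threshold, 10 lost a call, 5 gained one and 4 changed sign, all of these small: Csrp3 without WT unloading replicate 1 (0.00601, with -0.73 the lowest value on leaving out 1 library), Pf4 without the unloading groups (-0.12), and Tfeb (-0.0255) and Tnnt3 (-0.0130) without the control groups and with the trend removed. The base composition index moved to -0.102 (exact permutation p = 0.397) with thresholds of 40 and 58% GC. Deviations from the group mean were correlated between same-numbered WT and Notch2-mKO libraries of a condition. The r ran from -0.184 to 0.326 (median 0.0477), was above 0.1 in 5 of 12 pairs and was best with the own number in 5 of 12. With 4 libraries per group these values cannot settle whether the numbers pair libraries. The main fit treated libraries as unpaired. In the shallowest library 3 counts are 0.0906 CPM, which limits Hey2, Slc4a1 and Zdbf2.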
